A study of Mus musculus with 6 samples.

Results

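The genes examined here encode 7 proteins of the eye, the nervous system, the thyroid and the stomach that are known targets of autoimmune disease, namely Rbp3, Sag, Mbp, Mog, Tg, Tshr and Atp4a. They were taken by gene symbol from the 22513 entries of a table of expression values, and all 7 were found. RNA was measured in fetal thymic stroma, that is, whole thymic lobes of C57BL/6 background embryos in the last week of gestation, cultured for 4 days with 2-deoxyguanosine (2-DG), a treatment given to every lobe to deplete haematopoietic cells. Lobes were wild type (WT) or carried a germline loss of Jmjd6, a dioxygenase that hydroxylates lysines of splicing regulators (Jmjd6-/-), and were left unstimulated or were stimulated for 4 days with 1 μg/ml RANKL. There were 6 libraries, 1 each of unstimulated WT and unstimulated Jmjd6-/- stroma and 2 each of RANKL-stimulated WT and Jmjd6-/- stroma. The series description calls the repeats technical duplicates and the study calls them samples, so p-values may measure only technical spread.

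Medullary thymic epithelial cells (mTECs) transcribe many genes whose protein is otherwise made in a single organ, so that developing T cells meet those proteins before leaving the thymus. Many of these tissue-specific antigens depend on the transcriptional regulator Aire, which RANKL induces in mTECs through its receptor RANK and NF-κB signalling. Any one antigen is made by a small share of mTECs. The question put to the members was whether each could be detected in the stroma, whether it was higher with RANKL, and whether it differed when Jmjd6 was missing.

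The deposited values were FPKM, fragments scaled to transcript length and to the number of mapped fragments. Library depth was estimated here from the step that a single fragment makes in the FPKM of low genes, and ran from 15800000 to 30400000 fragments. A member was called above the depth limit in a library when its FPKM exceeded that of 3 fragments on its longest RefSeq coding transcript. This is also about the one-sided 95% upper bound for a count of 0. These limits cover counting error only. In the check of the labels, Jmjd6 was at 25.9 to 32.5 FPKM in the WT and 1.32 to 1.96 FPKM in the Jmjd6-/- libraries. Aire was at 0.142 and 0.473 FPKM in the unstimulated libraries and at 67.1 to 79.7 FPKM in the 4 RANKL libraries. Markers of mTECs and of cortical epithelium were present in every library, with summed levels of at least 1411 and 5506 FPKM. Most of the mTEC sum came from Krt5, at 1006 to 1977 FPKM, and Epcam, at 156 to 209 FPKM. All other mTEC markers were at 0.142 to 17.2 FPKM in the unstimulated libraries. The pan-leukocyte marker Ptprc and 5 T cell markers summed to at most 8.03 FPKM. Macrophage markers remained, with a summed level of 147 to 230 FPKM.

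Of the 7 members, Rbp3 and Mog were at or below the depth limit in all 6 libraries. Atp4a was below it in both unstimulated libraries and above it in the 4 RANKL libraries, and Sag, Tg, Tshr and Mbp were above it in all 6. Of the 42 pairs of member and library, 28 were above the limit and 8 were listed at 0. Only Mbp passed 1 FPKM in any library. For a test across all genes, limma was run on log2(FPKM + 0.1) of the 15894 genes whose mean over the libraries reached 0.1 FPKM, and p-values were adjusted over all of them by Benjamini-Hochberg. Sag, Mbp, Tshr and Atp4a passed this filter, while Rbp3, Mog and Tg did not and had no test. Fold changes on this scale understate the changes of low genes.

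**Figure D1:**
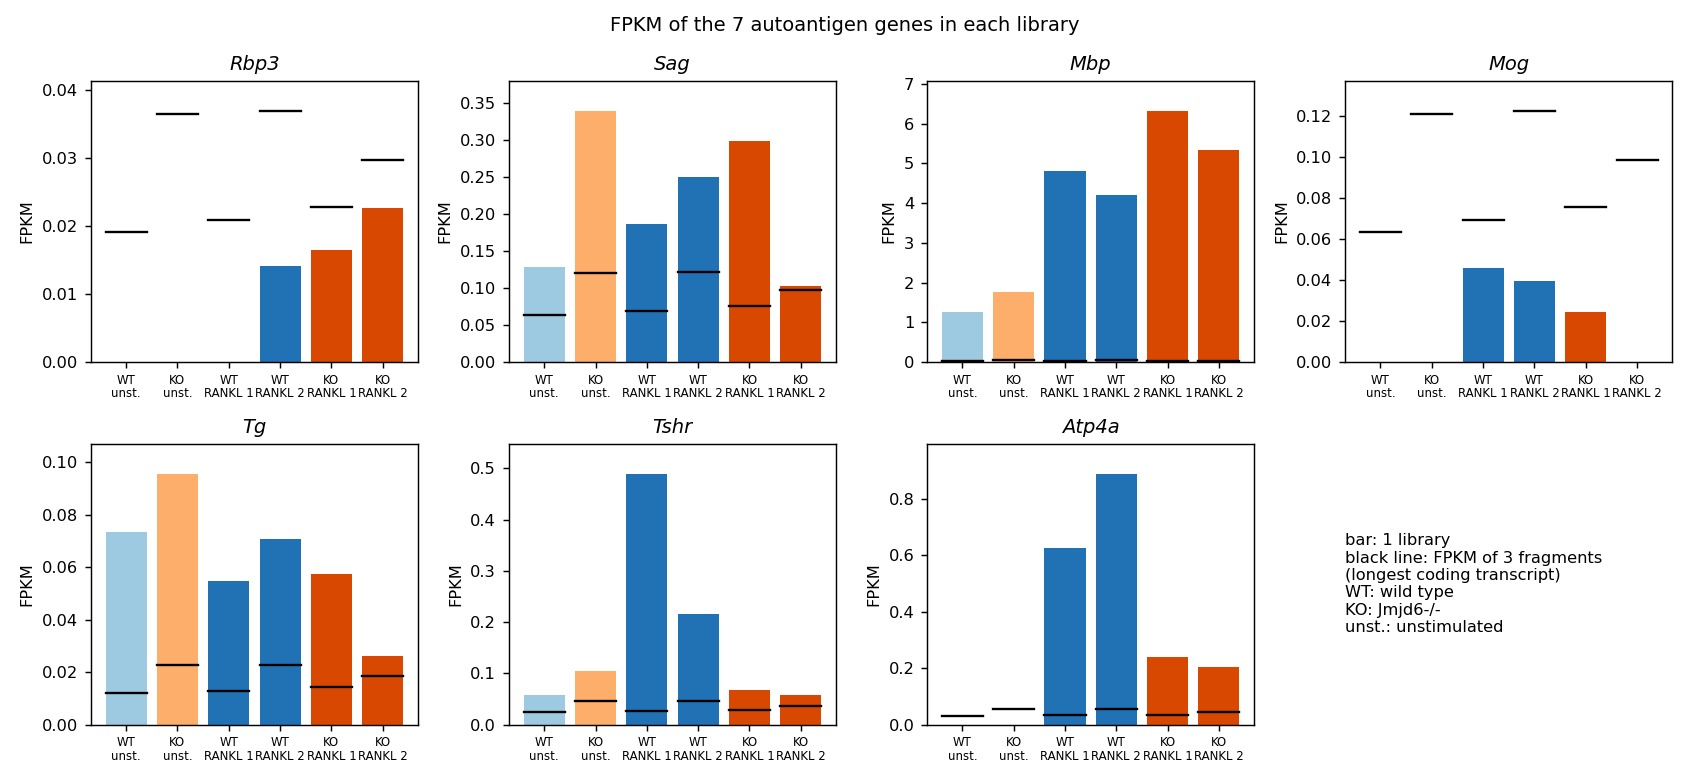
FPKM of each member (vertical axes, a separate linear scale for each gene) in the 6 libraries (horizontal axes), with 1 bar per library and a black line at the FPKM of 3 fragments. The bars of Rbp3 and Mog lie under the line in every library, those of Atp4a rise over it with RANKL only, and those of Mbp lie far over it throughout.

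The sequence before the transcription start was read for the members that the RefSeq promoter table of GRCm38.p6 holds, which were Rbp3, Sag, Mog and Atp4a. The 250 bases upstream of Atp4a and of Sag are shown, because Atp4a was undetected without RANKL and detected with it, whereas Sag was detected in both states. They lie at chr7:30711959-30712208 and chr1:87803430-87803679, both on the plus strand, and are written 5′ to 3′ up to the base before the start. Capitals mark a match to TATAAA on the opposite strand, at positions -207 to -202 from the start of Sag.
Atp4a: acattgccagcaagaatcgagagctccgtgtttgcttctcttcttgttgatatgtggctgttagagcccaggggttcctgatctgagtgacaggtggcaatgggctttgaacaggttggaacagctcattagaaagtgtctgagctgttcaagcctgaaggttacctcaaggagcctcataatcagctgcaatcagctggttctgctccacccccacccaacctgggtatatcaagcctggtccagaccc
Sag: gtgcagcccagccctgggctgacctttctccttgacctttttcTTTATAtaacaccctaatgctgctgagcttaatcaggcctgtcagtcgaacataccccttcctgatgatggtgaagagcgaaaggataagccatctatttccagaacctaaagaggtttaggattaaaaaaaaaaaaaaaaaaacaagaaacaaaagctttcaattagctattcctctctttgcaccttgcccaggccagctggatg

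Both strands of the 4 upstream windows were searched for the NF-κB consensus, for TATAAA and for CCAAT, motifs that do not overlap one another here. The match in Sag was the only one, and TATAAA occurs in 12.4% of the 32851 windows of the same length in the table. The NF-κB consensus occurs in 7.25% and CCAAT in 33.8% of them. Each of the 4 members had 2 CpG dinucleotides in its window, where the median over all windows was 6 and 29.0% held 2 or fewer. Their GC content was 42.8 to 51.2%, against a median of 52.4%.

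Rbp3 and Sag are proteins of photoreceptors and classical antigens of experimental uveitis. Rbp3, the interphotoreceptor retinoid-binding protein, carries retinoids between the photoreceptors and the pigment epithelium, and lies on chromosome 14 at 33954022 to 33964216 of mm10. It was listed at 0 in both unstimulated libraries and in the first WT RANKL library, at 0.0141 FPKM in the second, and at 0.0165 and 0.0226 FPKM in the Jmjd6-/- RANKL libraries. These values stand for 1 or 2 fragments each. The limit for Rbp3 was 0.0192 to 0.0369 FPKM, so no difference between groups was detectable at this depth, and an Rbp3 level below these limits was not excluded in any library.

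Sag, the rod arrestin that ends the signal of light-activated rhodopsin, lies on chromosome 1 at 87803680 to 87845157. It was at 0.128 (WT) and 0.338 FPKM (Jmjd6-/-) without stimulation, 0.186 and 0.250 in WT RANKL, and 0.299 and 0.102 in Jmjd6-/- RANKL stroma. The Jmjd6-/- RANKL libraries alone spanned most of the range, and only the unstimulated Jmjd6-/- value lay outside theirs. The counts behind these values were 3 to 12 fragments, and the lowest, at 0.102 FPKM, stood just over its limit of 0.0976 FPKM. The change with RANKL was -0.08 on the log2 scale (SE 0.42, adjusted p = 0.922, limma) with a 95% interval from -1.09 to 0.93. Between genotypes under RANKL it was -0.16 (SE 0.43, adjusted p = 0.887, limma), with an interval from -1.24 to 0.92. The direction of both changed with single libraries: without the second Jmjd6-/- RANKL library, they were 0.21 and 0.33.

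Most other genes of photoreceptors and lens were low too. Of 23 such genes, 21 stayed under 1 FPKM in every library, 3 were listed at 0 in all of them (Arr3, the cone arrestin, Pdc and Opn1mw), and 8 passed the filter. With RANKL, 1 of the 8 rose and none fell, where 10.5% of all genes tested rose and 4.11% fell. That gene was Nrl, a transcription factor of rods, which rose by 1.96 (SE 0.45, adjusted p = 0.0324, limma) from 0.0352 and 0.0344 FPKM to 0.199 and 0.603 in WT and to 0.699 and 0.349 in Jmjd6-/- RANKL stroma. Between genotypes under RANKL, 1 of the 8 was lower in Jmjd6-/- stroma and none was higher, where 1.82% of all genes tested were lower and 0.516% higher. That gene was Cryaa, the lens α-crystallin, at 1.44 and 1.21 FPKM in WT and at 0.0946 and 0 in Jmjd6-/- RANKL stroma (log2 change -3.35, SE 0.42, adjusted p = 0.0316, limma).

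Mbp and Mog are myelin proteins that are used to induce experimental autoimmune encephalomyelitis. Mbp is the basic protein that compacts the myelin sheath, and the same gene also gives the golli proteins from an upstream start, which are known from the thymus and other immune tissue. The gene lies on chromosome 18 at 82475123 to 82585637. Of its 8 RefSeq coding transcripts, 2 start at the upstream and 6 at the downstream promoter, 79.3 kb apart. The deposited value is 1 sum per gene, so golli and myelin transcripts were not separated.

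Mbp was the most abundant member. It was at 1.25 (WT) and 1.76 FPKM (Jmjd6-/-) without stimulation, at 4.80 and 4.21 in WT RANKL and at 6.32 and 5.34 in Jmjd6-/- RANKL stroma. All 4 RANKL libraries lay above both unstimulated ones. The WT mean with RANKL, 4.51 ± 0.420 FPKM (SD, n = 2), was 3.60 times the unstimulated level, and the Jmjd6-/- mean, 5.83 ± 0.689 FPKM (SD, n = 2), was 3.31 times its own. The rise with RANKL over both genotypes was 1.72 on the log2 scale (SE 0.15, adjusted p = 0.000763, limma), with a 95% interval from 1.36 to 2.07. Mbp passed the threshold under every alternative tried, with adjusted p between 0.000681 and 0.0215.

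Between the genotypes, the values of Mbp were ordered the other way from those of Tshr and Atp4a described below. Both Jmjd6-/- RANKL libraries lay above both WT ones, as they did for 24.5% of all genes tested, and the mean was 1.29 times that of WT. The difference, 0.36 on the log2 scale (SE 0.19), did not pass the threshold (adjusted p = 0.395, limma), and its 95% interval, from -0.12 to 0.84, leaves out a fall by more than 0.12 before adjustment for the number of genes.

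Mog, a minor glycoprotein on the outer face of myelin, lies on chromosome 17 at 37010740 to 37023398. It was listed at 0 in both unstimulated libraries and in the second Jmjd6-/- RANKL library, at 0.0455 and 0.0396 FPKM in WT RANKL and at 0.0242 FPKM in the first Jmjd6-/- RANKL library. Each of these values stands for 1 or 2 fragments, against limits of 0.0635 to 0.122 FPKM. A difference in Mog was therefore not detectable at this depth.

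Other genes of myelin and Schwann cells showed which of their kind moved in the cultures. Of 12 such genes, 10 were tested, and with RANKL 2 rose and none fell, beside 10.5% and 4.11% of all genes tested. Pmp2, a lipid-binding protein of peripheral myelin, went from 0 in both unstimulated libraries to 2.27 to 3.14 FPKM in the RANKL libraries (log2 change 4.69, SE 0.23, adjusted p = 7.3e-05, limma). Cnp, an enzyme of myelin that many other cells also make, rose by 1.32 (SE 0.15, adjusted p = 0.00195, limma). Sox10, the transcription factor that marks Schwann cells, was at 0.194 to 0.461 FPKM and did not pass the threshold in either comparison. The part of Schwann cells in the Mbp values was not tested. Under RANKL, none of the 10 passed the threshold between genotypes.

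**Figure D2:**
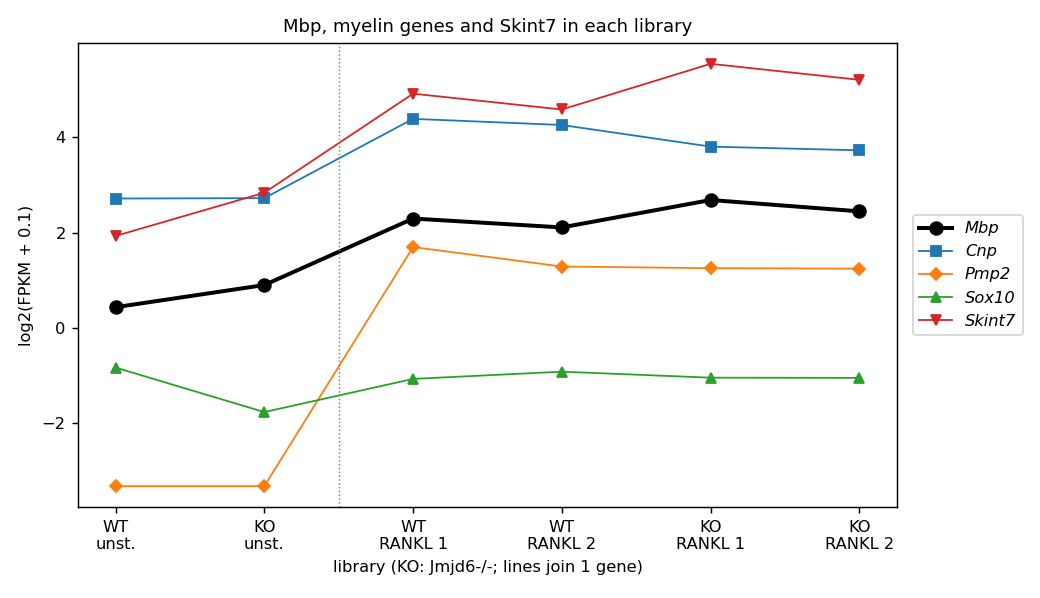
Mbp (black), 3 genes of myelin and Schwann cells and Skint7, the gene most like Mbp in pattern, as log2(FPKM + 0.1) on the vertical axis in each of the 6 libraries, with a line for each gene. Mbp, Cnp, Pmp2 and Skint7 are higher in all RANKL libraries, to the right of the dotted line, than in the unstimulated ones, while the values of Sox10 overlap.

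Across the 6 libraries, the genes most like Mbp among 12587 whose mean reached 1 FPKM were Skint7 (Pearson r = 0.999), Mmgt2 (0.998) and Cdk5r1 (0.997). Skint7 belongs to a family of membrane proteins of thymic epithelium and skin, and was at 3.71 and 7.04 FPKM in the unstimulated libraries, 30.1 and 23.8 in WT RANKL, and 46.5 and 36.8 in Jmjd6-/- RANKL stroma. Cdk5r1 is an activator of the kinase Cdk5. All such correlations are descriptions over 6 points, each the highest of 12587, and the points share their libraries and treatments.

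The thyroid members are the antigens of Hashimoto's and Graves' disease. Tg is the large precursor protein on which thyroid hormones are formed, and lies on chromosome 15 at 66670770 to 66850720. It was at 0.0736 FPKM in unstimulated WT, 0.0956 in unstimulated Jmjd6-/-, 0.0547 and 0.0709 in WT RANKL and 0.0574 and 0.0260 in Jmjd6-/- RANKL stroma. The values stand for 4 to 19 fragments on a long transcript, all above the limit of 0.0119 to 0.0229 FPKM. The unstimulated libraries held the 2 highest values, and the genotypes overlapped under RANKL, at 0.0628 ± 0.0114 (SD, n = 2) in WT and 0.0417 ± 0.0222 FPKM (SD, n = 2) in Jmjd6-/- stroma. An exact permutation test of 2 against 2 libraries cannot give a two-sided p under 0.33, and the mean of Tg was below the filter for the fit across genes.

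The Tg locus holds Sla, an adaptor gene of leukocytes, on the opposite strand. Sla was at 1.76 and 1.39 FPKM in the unstimulated libraries, 1.20 and 1.57 in WT RANKL and 0.857 and 0.888 in Jmjd6-/- RANKL stroma, far above Tg. The authors ran the quantification with a strand-specific setting, but no strand-marking step is described for the library preparation, so fragments of both genes may not have been told apart. Ptprc, the pan-leukocyte marker, fell with RANKL by 1.00 on the log2 scale (adjusted p = 0.00547, limma). Its part in the Tg values was not tested.

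Tshr, the receptor for thyroid-stimulating hormone, lies on chromosome 12 at 91400993 to 91540509 and is known from thyroid and from fat cells. It was at 0.0586 FPKM in unstimulated WT, 0.104 in unstimulated Jmjd6-/-, 0.489 and 0.216 in WT RANKL and 0.0676 and 0.0570 in Jmjd6-/- RANKL stroma. Both WT RANKL libraries lay above the other 4. The counts were 57 and 14 fragments in these libraries and 5 to 7 in the other 4. If the fragments came from the shorter of its 2 coding transcripts, only the WT RANKL libraries would be above the limit.

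With RANKL, Tshr changed by 0.56 over both genotypes (SE 0.50, adjusted p = 0.50, limma), which did not pass the threshold and was -0.33 without the unstimulated WT library. Under RANKL the mean was 0.353 ± 0.193 FPKM (SD, n = 2) in WT and 0.0623 ± 0.00746 (SD, n = 2) in Jmjd6-/- stroma. The difference was -1.41 on the log2 scale (SE 0.42, 95% interval from -2.46 to -0.36). Its unadjusted p was 0.0173 and its adjusted p 0.156 in limma, so Tshr was not among the genes called. Its size depended on the first WT RANKL library, without which it was -0.96, and on the constant added to FPKM, with -0.34 at a constant of 1 and -2.22 at 0.01.

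Markers of fat cells had their highest levels in the same libraries as Tshr, although none of the 3 tested passed the threshold in either comparison. The summed level of 5 such markers was 0.164 and 1.34 FPKM in the unstimulated libraries, 5.13 and 20.6 in WT RANKL and 0.393 and 1.11 in Jmjd6-/- RANKL stroma, and the first WT RANKL library held the highest level of the sum as of Tshr. Adipoq, the hormone adiponectin, was at 12.9 and 3.18 FPKM in WT and 0.168 and 0.547 in Jmjd6-/- RANKL stroma, and Plin1, the coat protein of lipid droplets, at 6.84 and 1.62 against 0.147 and 0.532 FPKM. The gene most like Tshr in pattern was Lipe, the hormone-sensitive lipase (r = 0.996), at 4.74 and 1.73 FPKM in WT RANKL libraries and at 0.722 to 1.00 in the other 4. Next were Ampd3, an AMP deaminase (0.992), and Isyna1, an inositol phosphate synthase (0.980). The part of fat cells in the Tshr values was not tested, and in a bulk sample fewer cells of a type and less RNA per cell cannot be told apart.

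**Figure D3:**
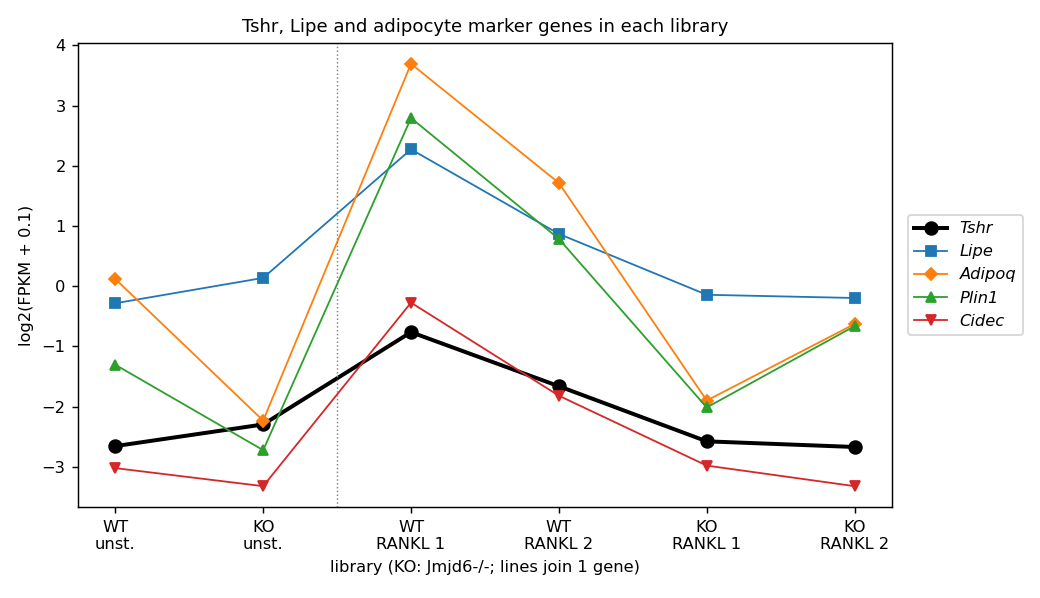
Tshr (black), Lipe and 3 fat cell markers as log2(FPKM + 0.1) on the vertical axis in each of the 6 libraries, with a line for each gene. All 5 have their highest value in the first WT RANKL library and the next in the second, with Tshr at 0.489 and 0.216 FPKM.

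Of the 4 transcription factors whose combination marks thyroid follicle cells, Pax8 reached no more than 0.194 FPKM and Nkx2-1 no more than 0.0992 FPKM. Hhex was at 0.364 to 1.06 FPKM in every library. Foxe1 was listed at 0 in both unstimulated libraries and was at 0.135 and 0 FPKM in WT and 0.849 and 0.780 in Jmjd6-/- RANKL stroma (log2 change between genotypes 2.58, adjusted p = 0.0645, limma). Of 12 thyroid genes, 7 were tested. With RANKL 1 rose and none fell, beside 10.5% and 4.11% of all genes tested, and none passed the threshold between genotypes. The gene that rose was Dio1, a deiodinase also made in liver and kidney, by 3.57 (SE 0.15, adjusted p = 5.95e-05, limma).

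Atp4a is the catalytic subunit of the proton pump of gastric parietal cells and the main antigen of autoimmune gastritis. It lies on chromosome 7 at 30712232 to 30725534. It was listed at 0 in both unstimulated libraries, at 0.627 and 0.889 FPKM in WT RANKL and at 0.241 and 0.205 FPKM in Jmjd6-/- RANKL stroma. The RANKL values stand for 58 and 47 fragments in WT and 20 and 13 in Jmjd6-/- stroma, and the 3 levels do not overlap.

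Atp4a rose with RANKL by 2.39 on the log2 scale over both genotypes (SE 0.40, adjusted p = 0.0104, limma). Against the limit of 0.0296 FPKM in unstimulated WT, the mean of the WT RANKL libraries was 25.6-fold higher, and the lower library 21.2-fold. Against the limit of 0.0562 FPKM in unstimulated Jmjd6-/- stroma, that of the Jmjd6-/- RANKL libraries was 3.96-fold higher, and the lower library 3.64-fold. Counting error in the RANKL libraries is not included in these folds. The call was lost without the unstimulated WT library, at an adjusted p of 0.102 in limma, and without the filter on low genes, at 0.0703. At a lower estimate of depth, from the number of reads in the study, the means were 16.8-fold and 2.59-fold over the limits.

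Under RANKL, Atp4a was at 0.758 ± 0.185 FPKM (SD, n = 2) in WT and at 0.223 ± 0.0254 FPKM (SD, n = 2) in Jmjd6-/- stroma, a ratio of 0.294. The difference was -1.40 on the log2 scale (SE 0.33), with a 95% interval from -2.23 to -0.56. Its unadjusted p was 0.00703 and its adjusted p 0.10 in limma, so Atp4a was not among the genes called. Over the alternatives the adjusted p ranged from 0.0383 to 0.520. The lowest came from leaving out the first WT RANKL library, where the lone WT library is assumed to vary like the other groups, the unadjusted p was 0.00637, and 2254 and 1737 genes were called higher and lower in place of 82 and 290. The difference was -0.52 with a constant of 1 added to FPKM in place of 0.1.

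Other genes of the stomach were called in both directions between genotypes, and Hdc was the only one called for a rise with RANKL and a lower level in Jmjd6-/- stroma. Of 18 such genes in the table, 13 were tested. With RANKL 3 of the 13 rose and none fell, beside 10.5% and 4.11% of all genes tested. Under RANKL 3 were lower and 1 higher in Jmjd6-/- stroma, beside 1.82% and 0.516%. Those lower were Pgc, the pepsinogen C precursor, at 2.14 and 3.63 FPKM in WT and 0.0382 and 0.208 in Jmjd6-/- libraries (log2 change -3.81, adjusted p = 0.0343, limma), Gkn1, a gastrokine of the surface mucosa (-2.62, adjusted p = 0.0479, limma), and Hdc, the histamine-forming enzyme, which mast cells also make (-2.53, adjusted p = 0.0279, limma). Gkn1 was at 0.422 and 0.862 FPKM in WT RANKL libraries. Its Jmjd6-/- RANKL values, 0.0321 and 0 FPKM, stand for 1 and 0 fragments and lay below their limits of 0.107 and 0.139 FPKM. Without stimulation Gkn1 was at 0.668 FPKM in WT and 0.162 in Jmjd6-/- stroma. The one higher was Slc26a9, a chloride transporter, at 0.588 and 0.667 FPKM in WT and 2.78 and 2.46 in Jmjd6-/- libraries (1.90, adjusted p = 0.0376, limma). With RANKL, Slc26a9 rose by 3.21 (adjusted p = 0.00334, limma), Hdc by 2.47 (adjusted p = 0.0135, limma) and Chia, an acidic chitinase, by 2.24 (adjusted p = 0.0271, limma).

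Atp4b, singled out after its values were seen because it is the β subunit that pairs with Atp4a, was listed at 0 in both unstimulated libraries, at 0.244 and 0.409 FPKM in WT RANKL and at 0.0293 and 0.0405 FPKM in Jmjd6-/- RANKL stroma. The Jmjd6-/- values stand for 1 fragment each and lay below their limits of 0.0958 and 0.125 FPKM, whereas the WT values, of 8 fragments each, lay above theirs. In limma its adjusted p was 0.133 with RANKL and 0.0942 between genotypes, so neither passed. Over the 6 libraries, the genes most like Atp4a were Sdf2l1, a chaperone of the endoplasmic reticulum (r = 0.997), a merged entry of hair keratins (Krt81, Krt83 and Krt85 with 5430421N21Rik, 0.997) and Rasd2, a small GTPase (0.996).

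**Figure D4:**
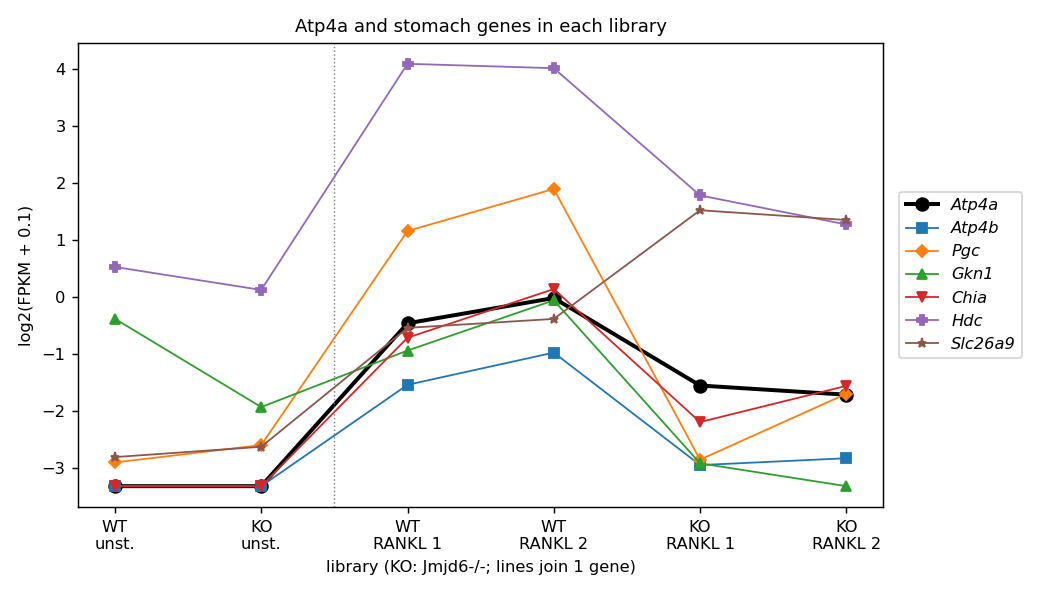
Atp4a (black) and 6 stomach genes as log2(FPKM + 0.1) on the vertical axis in each of the 6 libraries, with a line for each gene. In the RANKL libraries Atp4a, Atp4b, Pgc, Gkn1, Chia and Hdc are higher in both WT than in both Jmjd6-/- libraries, and Slc26a9 is the reverse. Of these, Atp4a, Atp4b and Chia did not pass the test between genotypes.

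Side by side, the 4 tested members did not share a pattern. With RANKL, Mbp and Atp4a rose and Sag and Tshr did not pass, where 10.5% of all genes tested rose and 4.11% fell. In the fit without the filter, which holds all 7 members, their median change was 0.33 against 0 over all 22513 genes. All 4 RANKL libraries lay above both unstimulated ones in the case of Mbp and Atp4a, as for 18.9% of all genes tested. Between genotypes under RANKL, none of the 4 passed the adjusted threshold, where 1.82% of all genes tested were lower and 0.516% higher. Tshr and Atp4a had an unadjusted p under 0.05 in limma. So had 2987 of the 15894 genes tested. The median of all 7 members in the fit without the filter was -0.21 against 0 over all genes. Both Jmjd6-/- libraries lay below both WT ones for Tshr and Atp4a, an order found in 26.2% of all genes tested, and above them for Mbp. Markers of other cell types also differed between genotypes under RANKL. Of 4 endothelial markers, Pecam1 (log2 change -1.74) and Cdh5 (-1.60) were lower in Jmjd6-/- stroma (both adjusted p = 0.0282, limma), and their summed level was 9.67 to 10.7 FPKM in WT and 3.13 to 3.56 FPKM in Jmjd6-/- libraries. Of 5 mesenchymal markers 1 was lower, Col1a2 (-0.80, adjusted p = 0.0350, limma), with sums of 338 to 367 and 241 to 247 FPKM. Of 6 neuronal genes 1 was higher, Stmn2 (1.72, adjusted p = 0.0209, limma), at 19.5 and 20.4 FPKM in WT and 67.5 and 64.3 in Jmjd6-/- libraries. Stmn2 made up nearly all of the sums, 20.0 to 21.3 and 65.0 to 68.2 FPKM, and the other 5 genes stayed under 1 FPKM. The part of these cell types in the genotype values of the members was not tested.

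Whether the response to RANKL itself differed between genotypes was tested in the same fit, with 1 unstimulated library for each genotype. The difference, Jmjd6-/- minus WT, was -1.77 for Tshr (unadjusted p = 0.0543, limma), -1.40 for Atp4a (unadjusted p = 0.0557, limma), -1.10 for Sag (unadjusted p = 0.196, limma) and -0.10 for Mbp (unadjusted p = 0.771, limma). No member passed, and of all genes tested 0% were called, with 664 of them at an unadjusted p under 0.05. Atp4a has the same value here as under RANKL because both its unstimulated libraries were at 0.

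**Figure D5:**
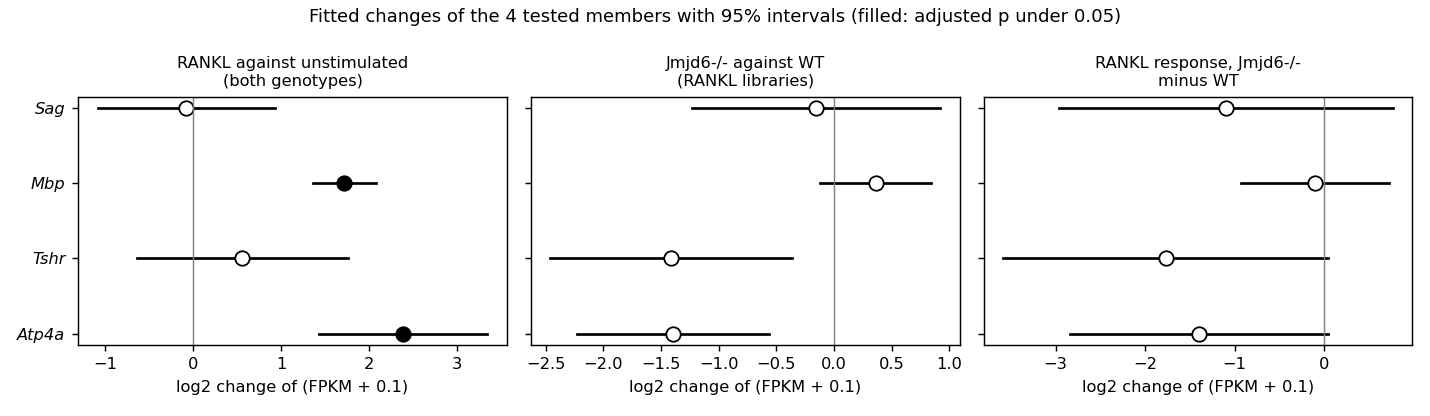
Fitted changes of the 4 tested members (points, log2 scale of FPKM + 0.1 on the horizontal axes) with 95% intervals (lines), in 3 panels for RANKL, for genotype under RANKL and for the difference in the RANKL response. Only the RANKL changes of Mbp, 1.72, and Atp4a, 2.39, are filled, which marks an adjusted p under 0.05.

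The gene most like Sag and the gene most like Tg were less close than those of Mbp, Tshr and Atp4a. For Sag the most similar genes were Map3k1, a kinase (r = 0.914), Gnb3, the cone G protein β subunit (0.882), and Slc19a1, the folate carrier (0.876). For Tg they were Zkscan4, a zinc finger protein (0.987), Slc5a6, a vitamin transporter (0.976), and Agpat6, an acyltransferase of glycerolipid synthesis (0.968). The values of Sag and Tg behind these correlations rest on 3 to 19 fragments a library.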

How the data were processed

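The authors sequenced poly-A RNA from the 6 libraries as 101-bp paired ends, filtered the reads by criteria not given in the sources used here, mapped them to mm10 with TopHat2 2.0.10 and deposited FPKM per gene from Cufflinks 2.1.1, set to correct for multi-mapped reads and to a stranded library type. Groups came from the sample titles. FPKM were used as deposited. Depth was estimated from the steps of values below 0.15 FPKM in single-transcript genes of at least 1000 bp, with 150 bp taken off each length. With the reads the study counts taken as ends of pairs, depth would be 1.53 times lower. limma 3.58.1 in R 4.3.3 used log2(FPKM + 0.1), a mean-variance trend and a threshold of 0.05 on the adjusted p. RANKL was fitted over 6 libraries beside a genotype term. Genotype under RANKL and the difference in response were fitted in a model of the 4 condition means. The fits were tested on simulated data. Starts of loci in the file count from 0 and were raised by 1. Named genes are the members, genes overlapping them, the 3 most correlated genes, and genes of the tissue lists past the threshold. Other list genes and cell type markers named were chosen after their values were seen. Some genes were taken out of the lists and are not reported here. Members and lists were chosen with earlier results of these data known. Alternatives were other constants, filters and scalings, no trend, a replicate block, the RANKL libraries alone, each library left out, and other depth limits.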

Additional observations from a re-analysis of the deposited data

How the results depend on the processing

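With each choice changed in turn, 137 of 147 recomputed changes of the tested members kept their direction and their side of the threshold. Of the 4 tested members, 2 passed for RANKL. This became 1, Mbp, with no filter, with a filter at a mean of 1 FPKM, which leaves Mbp alone in the fit, and without the unstimulated WT library. Leaving out each library gave 1 to 2. For genotype under RANKL, 0 passed. With the replicate block 1 passed, Atp4a (adjusted p = 0.0450, limma), and leaving out each RANKL library gave 0 to 1. Over all genes, 82 were called higher and 290 lower in Jmjd6-/- stroma, 1 and 1 without the filter, and 396 and 1081 with the block, and for RANKL 1675 and 654 became 788 and 299 without the filter. The replicate numbers share only a number, since the deviations of same-numbered RANKL libraries correlated at -0.08 over 12587 genes. The difference in response gave 0 under every alternative. Directions reversed when single libraries were left out. The log2 change of Sag with RANKL ran from -0.63 without unstimulated WT to 0.47 without unstimulated Jmjd6-/-, and was 0.21 without the second Jmjd6-/- RANKL library. That of Sag between genotypes ran from -0.65 without the first to 0.33 without the second Jmjd6-/- RANKL library, and that of Tshr with RANKL from -0.33 without unstimulated WT to 1.44 without unstimulated Jmjd6-/-. The difference in response of Mbp ran from -0.22 to 0.017 without the first or second Jmjd6-/- RANKL library, and was 0.014 with a constant of 1. The cause of these changes was not tested. The rise of Atp4a was 0.55 with a constant of 1 and 5.39 with 0.01. Above the depth limit in at least 1 library were 5 members, also with the limit at 10 fragments and at the lower depth. So were 5 with the shortest transcript, an alternative chosen after seeing the data, and 7 with the limit at 1 fragment. At 10 fragments 17 of the 42 pairs remained above the limit. Only Mbp was then above it in every library, and Sag only in the first Jmjd6-/- RANKL library. At the lower depth, Sag and Tg were below the limit in the second Jmjd6-/- RANKL library.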
